A study of Mus musculus with 6 samples.

Results

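Prostaglandins are lipid mediators made from arachidonic acid, and the genes described here encode the enzymes that make and break down prostaglandin E2 and a receptor that senses it. The 8 genes were taken by name from the 34745 genes listed in the count data: Pla2g4a, Ptgs1, Ptgs2, Ptges, Ptges2, Ptges3, Ptger4 and Hpgd. All 8 were found. They were compared between 3 RNA-seq libraries labelled sg-con and 3 labelled sg-kiaa1522, all from 889-DTC (889), a mouse lung cancer cell line whose strain label is C57BL/6. Both groups carried Cas9 with a single guide RNA, directed at EGFP in sg-con and at KIAA1522 in sg-kiaa1522. Which KIAA1522 guide the sequenced cells carried is not given in the sources used here, the labels name no drug treatment, and the labels do not say that the libraries of a group came from separate cultures, so each p value measures the spread between these libraries. The comparison asks what differs when KIAA1522, studied in cisplatin-resistant lung cancer, is targeted.

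Cytosolic phospholipase A2 frees arachidonic acid from membranes, and the cyclooxygenases turn it into prostaglandin H2, which the prostaglandin E synthases isomerise to prostaglandin E2. Prostaglandin E2 leaves the cell and acts through its EP receptors, and 15-hydroxyprostaglandin dehydrogenase inactivates it. In lung epithelium and lung tumours the inducible cyclooxygenase, Ptgs2 (COX-2), is known as a target of inflammatory signals, NF-kappa B among them.

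Total counts ranged from 12220001 to 18609376 per library, and the test covered 10046 genes whose counts summed to more than 500. A gene was called where its adjusted p in edgeR's quasi-likelihood test was at most 0.05 and its log2 fold change, sg-kiaa1522 over sg-con, was at least 1 in size. The mRNA of the targeted gene, annotated as C77080 in mouse, was not lower in the libraries labelled sg-kiaa1522: it was at 127 ± 2.93 CPM (counts per 1000000 counts, TMM-normalised, SD, n = 3) in sg-con and 210 ± 6.38 in sg-kiaa1522. Its log2 fold change was 0.73 (SE 0.0569, edgeR adjusted p = 9.1e-05), so the mRNA does not check the labels, and every direction below is that of the libraries as labelled. The 14 lung epithelial markers examined summed to 3908 to 4618 CPM in sg-con and 3280 to 3523 CPM in sg-kiaa1522, mostly Krt8, Krt18 and Krt19. Epcam was at 0 counts in all 6 libraries, and Krt7, Cldn4, Cldn7 and Foxj1 each had 7 counts or fewer over them. Sftpc, Sftpa1 and Scgb1a1 did not pass the count filter either. Cdh1 was called lower in sg-kiaa1522 (56.4 to 20.6 CPM, log2 fold change -1.45, edgeR adjusted p = 5.1e-05). Nkx2-1 varied within both groups, at 55.7, 59.1 and 13.6 CPM in sg-con and 10.9, 9.49 and 39.5 CPM in sg-kiaa1522.

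The RefSeq promoter windows of 3 of the genes are shown first, since they are the genes on the path from arachidonic acid to prostaglandin E2 that passed the adjusted p. Each runs from 250 bases before to 30 bases after the start of transcription on GRCm38.p6, 5′ to 3′ on the gene's strand, and capitals mark matches of 4 motifs searched on both strands. The Ptgs2 window is chr1:150099781-150100060 on the plus strand, the Ptges window chr2:30903268-30903547 on the minus strand and the Pla2g4a window chr1:149961261-149961540 on the minus strand.
Ptgs2: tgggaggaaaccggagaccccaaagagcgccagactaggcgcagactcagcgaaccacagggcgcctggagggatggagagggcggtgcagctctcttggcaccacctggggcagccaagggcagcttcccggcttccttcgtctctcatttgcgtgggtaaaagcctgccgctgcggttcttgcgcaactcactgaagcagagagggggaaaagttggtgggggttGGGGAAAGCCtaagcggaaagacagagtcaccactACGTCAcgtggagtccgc
Ptges: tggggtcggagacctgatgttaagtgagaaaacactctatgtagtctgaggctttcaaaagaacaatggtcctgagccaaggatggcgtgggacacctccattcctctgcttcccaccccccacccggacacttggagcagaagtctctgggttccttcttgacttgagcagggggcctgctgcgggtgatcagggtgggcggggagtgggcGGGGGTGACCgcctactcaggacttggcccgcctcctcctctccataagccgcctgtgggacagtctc
Pla2g4a: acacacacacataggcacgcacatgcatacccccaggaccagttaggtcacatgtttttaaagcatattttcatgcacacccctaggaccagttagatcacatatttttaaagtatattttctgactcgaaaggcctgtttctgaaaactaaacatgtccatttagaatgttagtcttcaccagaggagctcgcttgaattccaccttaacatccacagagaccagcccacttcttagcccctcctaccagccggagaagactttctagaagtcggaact
The Ptgs2 window held a kappa B match (GGG and CC separated by any 5 bases), whose first base lies at -23 from the start, and a cyclic AMP response element match (TGACGT, here on the minus strand), whose first base lies at 13. The Ptges window held a kappa B match at -38. This window surrounds the RefSeq start, which lies 26566 bases inside the 5′ end of the GENCODE gene. The Pla2g4a window held none of the 4 motifs and is printed in lower case throughout. Windows were matched for all 8 genes. The kappa B letters were found in 4 of them (Ptgs2, Ptges, Ptges3 and Ptger4) and in 48.9% of all 32851 windows of this length, so that a match is common. TGACGT was found in the Ptgs2 window alone of the 8 and in 7.26% of all windows. TATAAA was found in the Hpgd window alone and in 13.1% of all windows, and the AP-1 letters TGANTCA in none of the 8 and in 7.46% of all. Matches of the motifs may overlap each other, and each is a description of letters in a window.

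Of the 8 genes, 6 passed the count filter and 2 (Ptgs1 and Hpgd) did not. In the libraries labelled sg-kiaa1522, Ptgs2 was up-regulated and was the 1 gene called higher, where 2.74% of all tested genes were called higher. None of the 6 was called lower with edgeR or with DESeq2, where 4.34% of all tested genes were called lower with edgeR. At an unadjusted p under 0.05, 1 gene was lower, Ptges, against 29.5% of all tested genes, and 3 were higher, against 29.1%. With the adjusted p alone and no threshold on the fold change, 3 of the 6 were higher (Ptgs2, Pla2g4a and Ptger4), against 26.3% of all tested genes, and 1 was lower (Ptges), against 26.3% of all. Of the 6 tested genes, the levels of 5 did not overlap between groups, as was so for 61.7% of all tested genes. The median log2 fold change of the 6 was 0.46, beside -0.0067 over all tested genes.

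**Figure D1:**
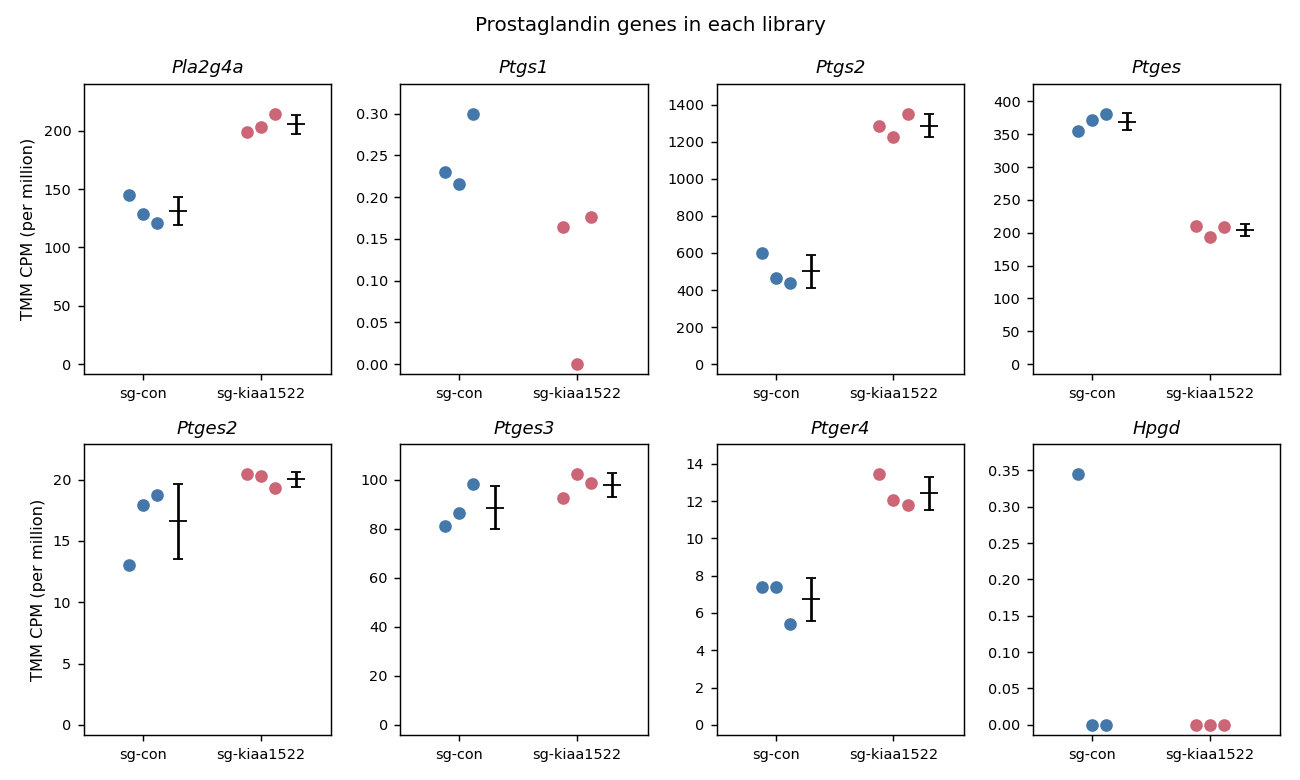
Level of each of the 8 genes in every library, in TMM-normalised CPM on the vertical axis, for sg-con (blue) and sg-kiaa1522 (red), each axis with its own scale from 0. Points are single libraries, and bars beside them give the mean and SD of 3 libraries, left out for Ptgs1 and Hpgd. Ptgs2 rises from between 437 and 600.3 to between 1227 and 1352, and Ptges falls from between 355 and 381 to between 194 and 209.9.

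Pla2g4a was higher in sg-kiaa1522, below the threshold on the fold change. Pla2g4a (ENSMUSG00000056220, chr1:149829618-149961290, minus strand), the cytosolic phospholipase A2 that releases arachidonic acid, was at 145, 129 and 121 CPM in sg-con and 199, 203 and 215 CPM in sg-kiaa1522. All 3 sg-kiaa1522 libraries were above all 3 sg-con libraries. Its mean rose 1.56-fold, from 132 ± 12.03 to 206 ± 8.23 CPM (SD, n = 3), with a log2 fold change of 0.64 (SE 0.0795, 95% interval 0.46 to 0.83, edgeR adjusted p = 0.00054). Whether more cells carried a transcript or each cell carried more of it cannot be told apart in these bulk libraries, here or for any gene below.

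At the cyclooxygenase step, Ptgs2 had the largest fold change of the 6 tested genes. Ptgs2 (ENSMUSG00000032487, chr1:150100031-150108227, plus strand), the inducible cyclooxygenase, had 10460, 8624 and 7277 counts in sg-con and 15575, 22483 and 22953 counts in sg-kiaa1522. These are 600.3, 465 and 437 CPM against 1283, 1227 and 1352 CPM, so the groups were far apart, and the first sg-con library was the highest of its group. The mean rose 2.57-fold, from 501 ± 87.4 to 1287 ± 62.8 CPM, with a log2 fold change of 1.36 (SE 0.119, 95% interval 1.08 to 1.64, edgeR adjusted p = 0.00013). By the size of its change Ptgs2 ranked 337 among the 10046 tested genes. Ptgs1 (ENSMUSG00000047250, chr2:36230426-36252272, plus strand), the constitutive cyclooxygenase COX-1, was nearly undetected, with 4, 4 and 5 counts in sg-con and 2, 0 and 3 in sg-kiaa1522. The counts did not overlap between the groups, but all were near the limit of detection, as 3 counts correspond to between 0.162 and 0.247 CPM. In a fit that kept every gene with at least 1 count, its adjusted p was 0.38 with edgeR. The cyclooxygenase transcripts were therefore Ptgs2 nearly throughout: per length, Ptgs2 made up 99.9% of the summed cyclooxygenase level in sg-con.

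The 3 prostaglandin E synthases did not move together. Ptges (ENSMUSG00000050737, chr2:30889471-30929863, minus strand), the microsomal synthase mPGES-1 that is usually induced with COX-2, was lower in sg-kiaa1522. It was at 355, 371 and 381 CPM in sg-con and 209.9, 194 and 208 CPM in sg-kiaa1522, every sg-kiaa1522 library lying below every sg-con library. Its mean fell 1.81-fold, from 369 ± 13.4 to 204 ± 8.64 CPM, with a log2 fold change of -0.85 (SE 0.0611, 95% interval -0.997 to -0.71, edgeR adjusted p = 6.8e-05). Ptges2 (ENSMUSG00000026820, chr2:32395896-32405772, plus strand), encoding a second membrane-associated synthase, was at 13.1, 17.9 and 18.8 CPM in sg-con and 20.4, 20.3 and 19.3 CPM in sg-kiaa1522. These ranges did not overlap, but its log2 fold change of 0.27 did not pass the test (SE 0.144, 95% interval -0.066 to 0.61, edgeR adjusted p = 0.15). Ptges3 (ENSMUSG00000071072, chr10:128058954-128077272, plus strand), the cytosolic synthase also known as the HSP90 co-chaperone p23, was at 81.2, 86.6 and 98.3 CPM in sg-con and 92.6, 102 and 98.6 CPM in sg-kiaa1522, and the groups overlapped. Its log2 fold change was 0.14 (SE 0.0866, 95% interval -0.060 to 0.34, edgeR adjusted p = 0.2). Ptges3 shares 19.6% of its 50-base words with copies including Ptges3-ps and Gm11893, so its counts are uncertain where the counting could split reads between them.

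Exact two-sided permutation tests of each gene's CPM, 3 libraries against 3, gave p = 0.1 for Ptgs2, Ptges, Pla2g4a, Ptger4 and Ptges2, which is the smallest p this design allows, and p = 0.2 for Ptges3. For the genes under the count filter the exact permutation tests gave p = 0.1 for Ptgs1, at 5 counts or fewer in every library, and p = 1 for Hpgd.

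Levels of the tested genes were compared per length. In TPM (transcripts per 1000000, from exon lengths of GENCODE on GRCm38), Ptgs2 was at 281 ± 55.7 and Ptges at 241 ± 4.39 in sg-con, and the ranges of these 2 genes over libraries overlapped. Below them in sg-con came Ptges3 at 102 ± 8.62, Pla2g4a at 52.8 ± 5.99, Ptges2 at 8.39 ± 1.39 and Ptger4 at 2.60 ± 0.473 TPM, each clear of its neighbours. In sg-kiaa1522 Ptgs2 stood alone at 769 ± 49.4 TPM, above Ptges at 142 ± 7.62, Ptges3 at 121 ± 5.95 and Pla2g4a at 88.0 ± 4.75. Ptges2 followed at 10.8 ± 0.191 and Ptger4 at 5.11 ± 0.342 TPM, and no neighbours in this order overlapped. Dividing by the mean transcript length in place of the summed exons put Ptges (370.1 TPM) above Ptgs2 (279 TPM) in sg-con and, in both groups, the mean of Pla2g4a above that of Ptges3, so those orders depend on the length used.

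Because the changes of Ptgs2 and Ptges were opposite, the ratio of the 2 transcripts moved more than either did. Per exon length, Ptgs2 over Ptges was 1.45, 1.08 and 0.983 in sg-con and 5.25, 5.42 and 5.57 in sg-kiaa1522. The 3 sg-kiaa1522 ratios were several times the sg-con ratios, with means of 1.17 ± 0.249 and 5.41 ± 0.163 (exact permutation p = 0.1, the smallest for 3 against 3). The ratio of Pla2g4a to Ptgs2 went the other way, from 0.190 ± 0.0149 to 0.114 ± 0.00399, since Ptgs2 rose more. With the mean transcript length the ratios kept these directions at other values, Ptgs2 over Ptges at 0.756 ± 0.161 and 3.50 ± 0.105 and Pla2g4a over Ptgs2 at 0.370 ± 0.0291 and 0.223 ± 0.00777, so which transcript was the higher in sg-con depends on the length used. Among the 3 synthases, Ptges made up 69.7, 68.9 and 66.9% of the summed TPM in sg-con and 53.8, 49.6 and 52.3% in sg-kiaa1522. Its share was lower in every sg-kiaa1522 library. Ptges3 went from 29.1 ± 1.27% to 44.1 ± 2.12% and Ptges2 from 2.38 ± 0.331% to 3.96 ± 0.163%. With the mean transcript length, a setting added for shares and ratios after seeing the data, Ptges held 78.8 ± 1.17% and 64.7 ± 1.91%, Ptges3 19.0 ± 0.956% and 31.2 ± 1.86%, and Ptges2 2.25 ± 0.322% and 4.06 ± 0.173%. The direction was the same but the shares depend on the length used. In CPM, neither Ptges3 nor Ptges2 passed the test.

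**Figure D2:**
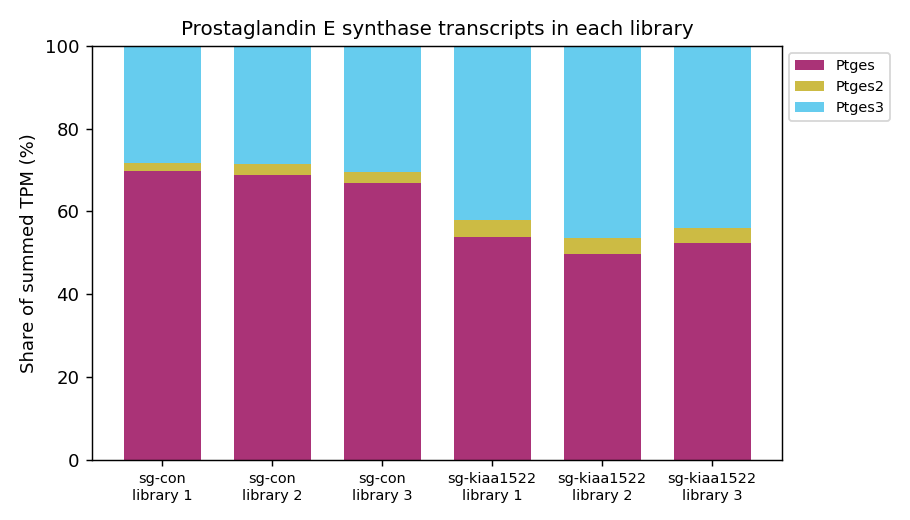
Share of the summed TPM of the 3 prostaglandin E synthases (vertical axis, %) held by Ptges, Ptges2 and Ptges3, per summed exon length, in each of the 6 libraries (horizontal axis). Ptges holds 66.9 to 69.7% in the sg-con libraries and 49.6 to 53.8% in the sg-kiaa1522 libraries.

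At the receptor, Ptger4 (ENSMUSG00000039942, chr15:5206661-5244187, minus strand), the Gs-coupled EP4 receptor for prostaglandin E2, was low but higher in sg-kiaa1522. It had 129, 137 and 90 counts in sg-con and 163, 221 and 200 in sg-kiaa1522, or 7.40, 7.39 and 5.40 CPM against 13.4, 12.1 and 11.8 CPM, and the groups did not overlap. The mean rose 1.85-fold, from 6.73 ± 1.15 to 12.4 ± 0.883 CPM, with a log2 fold change of 0.88 (SE 0.152, 95% interval 0.52 to 1.23, edgeR adjusted p = 0.0024). Over 15.3% of its exon length Ptger4 overlaps the antisense processed pseudogene Gm15937, so a part of its counts is uncertain. The other EP receptor genes did not pass the count filter and are not described here.

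Breakdown by Hpgd could not be assessed. Hpgd (ENSMUSG00000031613, chr8:56294585-56321043, plus strand), the 15-hydroxyprostaglandin dehydrogenase that inactivates prostaglandin E2, had 6 counts in the first sg-con library and 0 in the other 5. A count of 0 allows a level of up to 3 counts, which is 0.162 to 0.247 CPM in these libraries. The transcript was thus at or near the limit of detection in both groups, and the fit that kept every gene gave an adjusted p of 0.22 with edgeR.

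Beyond the 8, genes of the wider prostanoid and eicosanoid pathway were found higher and lower. Of 63 further pathway genes listed, 19 had 0 counts in all libraries and 21 were tested. With the adjusted p alone, 7 of the 21 were higher and 8 were lower, where 26.3% of all tested genes were higher and 26.3% lower, and 6 did not pass, with a median log2 fold change of -0.15 beside -0.0067 over all tested genes. At the threshold on the fold change, 1 of the 21 was higher and 2 were lower, beside 2.74% and 4.34% of all tested genes. The gene called higher was Abcc4, the transporter MRP4 that exports prostaglandin E2, at 20.4, 19.2 and 23.8 CPM in sg-con and 49.0, 49.0 and 52.9 CPM in sg-kiaa1522 (log2 fold change 1.25, SE 0.101, edgeR adjusted p = 9.9e-05). The genes called lower were Pla2g16 and Ptgr1. Pla2g16, a phospholipase of the PLAAT family, was at 27.1, 32.9 and 30.5 CPM in sg-con and 7.58, 6.17 and 8.42 CPM in sg-kiaa1522, a 4.08-fold lower mean (log2 fold change -2.03, SE 0.143, edgeR adjusted p = 6.4e-05). Ptgr1, a reductase that inactivates leukotriene B4 and 15-keto-prostaglandins, was at 64.4, 75.7 and 78.2 CPM in sg-con and 34.8, 28.5 and 29.1 CPM in sg-kiaa1522 (log2 fold change -1.25, SE 0.115, edgeR adjusted p = 0.00016). For all 3 of these genes the groups were clearly separate.

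Of the 4 other tested phospholipases, 2 were higher and 2 lower at the adjusted p, beside 26.3% of all tested genes in each direction. Pla2g15 (log2 fold change 0.73, edgeR adjusted p = 0.00061), the lysosomal enzyme, and Pla2g6 (0.39, adjusted p = 0.018), the calcium-independent enzyme, were higher, while Pla2g16 and the secreted Pla2g12a (-0.69, adjusted p = 0.038) were lower. Leaving out the second sg-kiaa1522 library took the edgeR adjusted p of Pla2g6 to 0.066. For Pla2g12a it was 0.11 without the third sg-con, the second sg-kiaa1522 or the third sg-kiaa1522 library, and 0.065 in a fit blocked on replicate number. Both other tested prostanoid synthases were higher at the adjusted p, where 26.3% of all tested genes were higher. They were Akr1b3, an aldo-keto reductase with prostaglandin F synthase activity (51.2 to 86.4 CPM, log2 fold change 0.75, edgeR adjusted p = 0.0018), and the carbonyl reductase Cbr1 (0.38, adjusted p = 0.036). The Cbr1 result had an edgeR adjusted p between 0.06 and 0.12 without the first or second sg-con library or any 1 sg-kiaa1522 library, and 0.083 in the blocked fit. Ptgfrn, a regulator of the prostaglandin F receptor, was lower (244 to 183 CPM, log2 fold change -0.41, edgeR adjusted p = 0.0021) and was the only tested gene of the receptor group. Ptgds, which makes prostaglandin D2, was not tested and had 34, 50 and 34 counts in sg-con and 42, 50 and 36 in sg-kiaa1522.

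**Figure D3:**
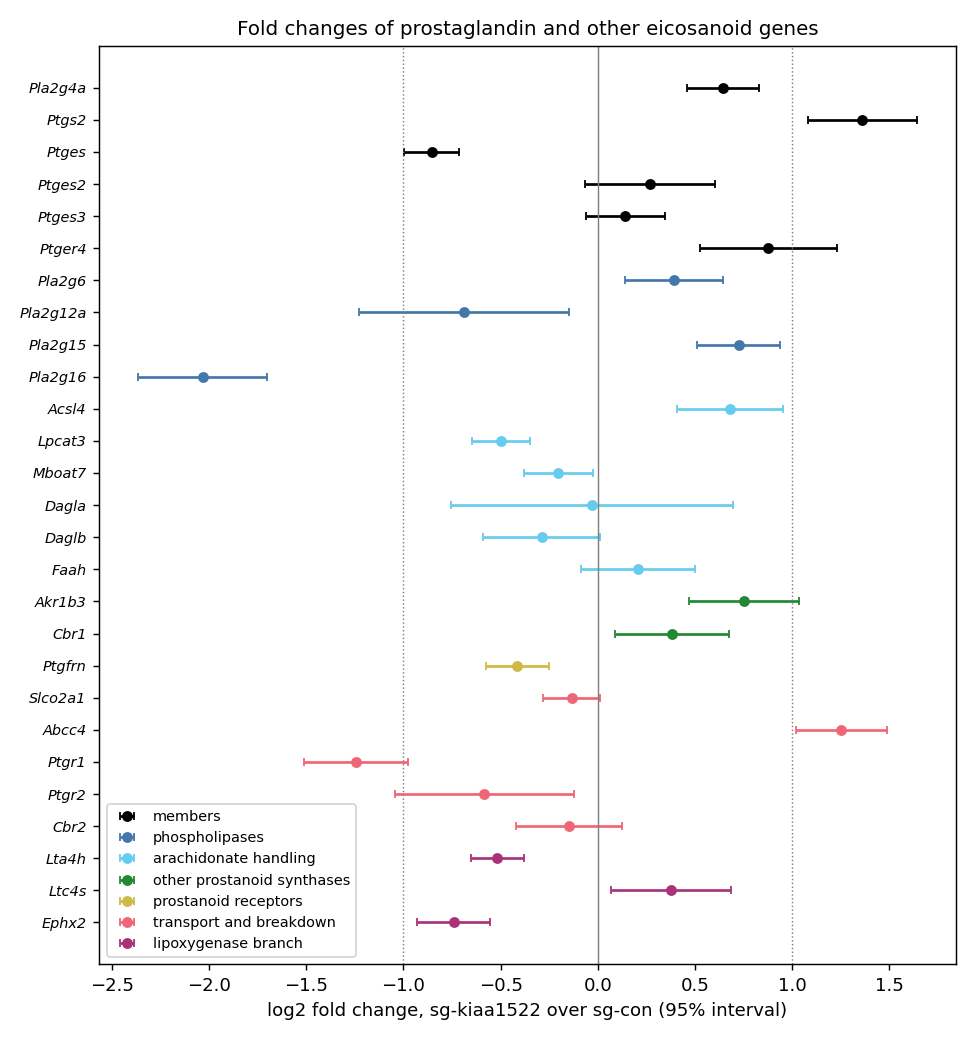
Log2 fold change, sg-kiaa1522 over sg-con, of each tested prostaglandin gene (black, at the top) and of each tested gene of the wider pathway (coloured by group), with 95% intervals. Dotted lines mark a log2 fold change of 1 in size. Ptgs2 at 1.36 and Abcc4 at 1.25 lie beyond the upper line, Ptgr1 at -1.25 and Pla2g16 at -2.03 beyond the lower.

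Pla2g4a and Ptgs2 are neighbours on chromosome 1. Their starts lie 139 kb apart and the genes point away from each other. Within 2 Mb of the Ptgs2 start, 10 other genes were tested, of which 3 were higher and 3 lower at the adjusted p, beside 26.3% of all tested genes in each direction, with a median log2 fold change of -0.10 and a range of -0.83 to 0.84. The nearest was the long noncoding RNA gene Ptgs2os2, 64.9 kb away (log2 fold change 0.84, edgeR adjusted p = 0.00113). BC003331, 293 kb away, was higher as well (0.75, adjusted p = 0.00172), whereas Tpr beside it had a log2 fold change of -0.12 (adjusted p = 0.274).

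**Figure D4:**
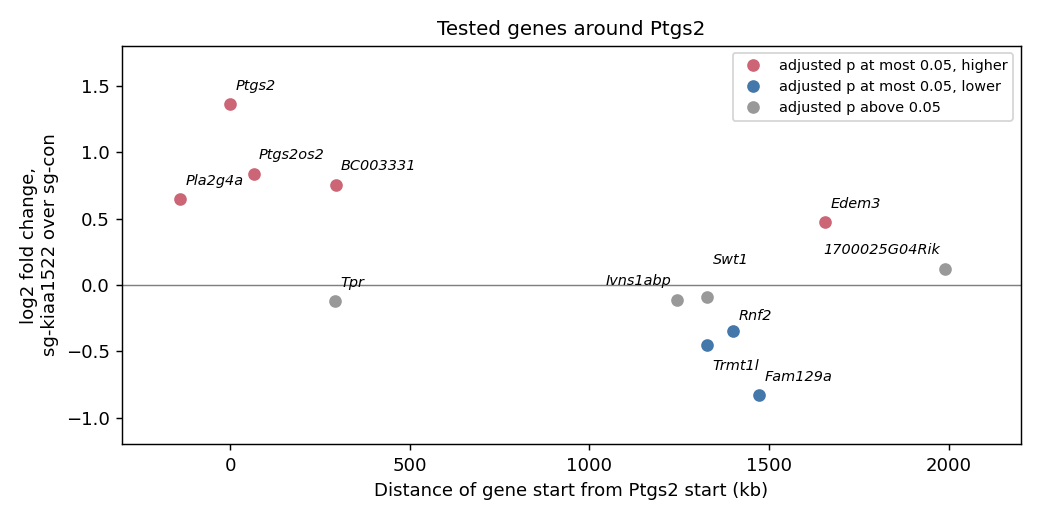
Log2 fold change (vertical axis, sg-kiaa1522 over sg-con) of the tested genes within 2 Mb of the Ptgs2 start, by the distance of each gene's start from it (horizontal axis). Ptgs2 at 1.36 is the highest, Ptgs2os2 is at 0.84 and Fam129a at -0.83.

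The tested genes whose levels followed Ptgs2 most closely over the 6 libraries were Slc5a3, Tmem132b, Zbtb10, Cul9 and Mtdh, with Pearson correlations of log2 CPM of 0.9992 to 0.9998. Those most like Ptges were Bmp4, Ppp2r2a, Arf2, Csf1 and Cdh1, at 0.9991 to 0.9998. Such values describe 6 libraries in 2 groups. In all, 205 genes had a correlation with Ptgs2 over 0.99 and 193 with Ptges, and the group difference that the genes share enters each value.

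Markers of other cell types differed in summed level between the groups. The summed level of 8 leukocyte markers was 2.27 to 6.31 CPM in sg-con and 11.04 to 14.0 CPM in sg-kiaa1522. Of these markers Cd68 alone was tested and higher (1.20 to 11.3 CPM), and Adgre1 and Cd3e were at 0 in all libraries. The means of Lyz2 (2.27 and 0.925 CPM) and Ptprc (0.406 and 0.103 CPM) were lower in sg-kiaa1522. Ptprc was near the limit of detection and overlapped between groups, with 14, 1 and 6 counts in sg-con and 1, 2 and 2 in sg-kiaa1522. The 4 endothelial markers summed to 3.42 to 5.17 CPM in sg-con and 9.25 to 11.5 CPM in sg-kiaa1522. The difference lay in Vwf (3.23 and 9.78 CPM), with Pecam1 overlapping between groups and Cdh5 and Kdr at means of 0.177 CPM or less. The 6 fibroblast markers summed to 467 to 486 CPM in sg-con and 167 to 198 CPM in sg-kiaa1522, mostly Col1a2. The 6 mast cell markers summed to 49.5 to 56.4 and 6.01 to 7.26 CPM, mostly Cma1, with Cpa3 and Fcer1a at 0 in all. Their part in the changes of Ptgs2, Ptges, Pla2g4a and Ptger4 was not tested.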

How the data were processed

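RNA from 889 cells was sequenced on an Illumina HiSeq instrument. The authors trimmed reads and removed ribosomal reads with Seqtk, mapped them to GRCm38 with HISAT2 2.0.4 and counted them with StringTie 1.3.0. They deposited raw counts per gene for each library. Whether counting used strand, and the annotation release, are not given in the sources used here. Genes that overlap on either strand may therefore share counts.

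Groups came from the labels. Genes with more than 500 counts summed over 6 libraries were fitted together in edgeR 4.0.16 (R 4.3.3; TMM normalisation, quasi-likelihood test, Benjamini-Hochberg adjustment over 10046 genes), with no covariate, after the filter and thresholds in the study's methods. CPM are TMM-normalised. TPM used GENCODE M21 exon lengths, available for 34344 genes. Coordinates are GRCm38. Counting error alone is covered by the 3-count limit. No libraries of a group agreed within sampling noise (chi-square per degree of freedom 12.3 or more).

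The genes, the wider list, markers and motifs were chosen with earlier results of these data known. Named genes were the 8, those of the wider list called at the threshold, up to 4 receptors or synthases of highest CPM, and the 5 most correlated with Ptgs2 and with Ptges. The tested phospholipases and neighbours of Ptgs2 were named after their values were seen. Alternatives were other scaling, DESeq2 1.42.0, other filters, a replicate block, no fold threshold, another gene length and leaving out each library.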

Additional observations from a re-analysis of the deposited data

How the results depend on the processing

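The 6 tested prostaglandin genes kept direction and side of the adjusted p under all 12 alternatives of the fit. The log2 fold change of Ptgs2 ranged from 1.27 to 1.504 and stayed called. That of Ptges ranged from -0.89 to -0.82, of Pla2g4a from 0.58 to 0.71, of Ptger4 from 0.74 to 0.94, of Ptges2 from 0.12 to 0.36 and of Ptges3 from 0.073 to 0.22. Without a fold threshold, 3 of them were higher and 1 lower, 7 wider-list genes were higher and 8 lower, and 2638 tested genes were higher and 2639 lower. Keeping every gene with a count gave 3 wider-list genes higher and 3 lower, with 767 higher and 941 lower of the 18499 genes tested. That fit tested all 63 wider-list genes except the 19 at 0 counts. With edgeR's filterByExpr the wider list again gave 3 and 3, with 607 higher and 812 lower of 12141 genes tested. How many wider-list genes that filter kept was not counted, so no share of the list is given for it. With the mean transcript length, TPM in sg-con was 0.220 for Ptgs1, 370.1 for Ptges, 10.6 for Ptges2, 89.4 for Ptges3 and 102 for Pla2g4a, and in sg-kiaa1522 it was 211 for Ptges, 13.2 for Ptges2, 102 for Ptges3 and 164 for Pla2g4a. Dagla, which did not pass the test with all libraries, ranged from -0.53 to 0.21 with libraries left out, and passed (-0.53, edgeR adjusted p = 0.016) without the first sg-kiaa1522 library. The cause was not tested. Low counts limit Ptgs1 and Hpgd.

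Same-numbered libraries did not deviate together (correlations -0.21, -0.051 and -0.17), and 0 libraries correlated best with their own number. With the replicate number as a block, the log2 fold change was 1.38 for Ptgs2, -0.86 for Ptges, 0.65 for Pla2g4a, 0.89 for Ptger4, 0.28 for Ptges2 and 0.14 for Ptges3, and 285 genes were called higher and 434 lower. The block took the adjusted p of Ltc4s to 0.11 and, as given above, took those of Pla2g12a and Cbr1 past 0.05.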

Other observations

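The lipoxygenase side of arachidonate metabolism, which competes with the cyclooxygenases for substrate, was mostly at low or no counts. Of 15 genes listed, Ephx2 of the epoxide side included, 7 had 0 counts in all libraries, Alox5 (5-lipoxygenase) among them, and 3 were tested. No gene that makes the epoxides was listed, so the level of that side was not assessed. Ephx2, the soluble epoxide hydrolase, was lower in the libraries labelled sg-kiaa1522 (67.1 to 40.2 CPM, log2 fold change -0.74, edgeR adjusted p = 0.00032), as was Lta4h, the leukotriene A4 hydrolase (126 to 88.4 CPM, -0.52, adjusted p = 0.00037). Ltc4s had a log2 fold change of 0.38 (edgeR adjusted p = 0.044), with an adjusted p between 0.052 and 0.12 in 10 of 12 alternatives, and overlaps Gm26542 over 26.4% of its exon length.

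Acsl4, which couples arachidonate to coenzyme A, was higher (76.4 to 122 CPM, log2 fold change 0.68, edgeR adjusted p = 0.0023), and Lpcat3, which returns it to phospholipids, was lower (168 to 119 CPM, -0.50, adjusted p = 0.00065). These genes were named after their values were seen.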
